A study of Rattus norvegicus with 6 samples.

Results

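The 8 genes described here encode chaperones of the HSP70, HSP110 and chaperonin families: Hsph1, Hspa8, Hspa4, Hspa4l, Hspa5, Hspa9, Hspd1 and Hspe1. They were taken by their symbol in the feature lists, and each symbol matched 1 of the 25629 genes measured. They were selected on their changes between saline and naloxone in earlier results of these same libraries, so those changes are given as a description, whatever adjusted p stands beside them. RNA of single nuclei was sequenced from frozen punches of the nucleus accumbens, a ventral striatal region, taken from adult Sprague-Dawley rats aged 90 to 120 postnatal days. All rats had self-administered heroin, on a fixed ratio of 1 response for 7 days and of 3 responses for 4 days, followed by a progressive ratio test on day 12 and a return to 3 responses on days 13 and 14. They were then given saline or naloxone, which blocks opioid receptors, 1 h before death. The 12 rats (6 male, 6 female) contributed to 6 pooled libraries with male and female tissue in each: saline replicates 1, 2 and 3 and naloxone replicates 4, 5 and 6. No rats without heroin were analysed here, and the p-values measure the spread between pooled libraries.

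HSP70 proteins bind unfolded stretches of other proteins and release them in a cycle driven by ATP. HSP110 proteins speed the exchange of nucleotide that lets HSP70 release its client. Chaperonins instead enclose a folding protein in a barrel. In the cytosol, Hspa8 encodes the constitutive HSP70 (HSC70), which in neurons also uncoats clathrin-coated vesicles, and Hsph1, Hspa4 and Hspa4l encode HSP110 proteins. Hspa5 encodes BiP, the HSP70 of the endoplasmic reticulum, and Hspa9 encodes mortalin, the HSP70 of mitochondria. Hspd1 and Hspe1 encode HSP60 and HSP10, the barrel and the lid of the mitochondrial chaperonin. Among the cytosolic genes, Hsph1 and Hspa8 are classical targets of heat shock factor 1. Hspa5 is a classical target of the unfolded protein response of the endoplasmic reticulum.

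The stretches before the transcription starts are printed because the members compared below differ in the motifs of these 2 pathways. They are RefSeq sequences of the GRCr8 assembly, in which all 8 members had an entry, and cover the 250 bases before the start, read 5′ to 3′ on the gene's own strand. Capitals mark matches to the heat shock element core (GAANNTTC or TTCNNGAA) or, in Hspa5, to the endoplasmic reticulum stress element, which is CCAAT and CCACG with any 9 bases between them. Hsph1 lies on the plus strand at chr12:10427118-10427367, Hspa8 on the plus strand at chr8:50080264-50080513, Hspd1 on the minus strand at chr9:64084038-64084287 and Hspa5 on the plus strand at chr3:38452766-38453015.
Hsph1: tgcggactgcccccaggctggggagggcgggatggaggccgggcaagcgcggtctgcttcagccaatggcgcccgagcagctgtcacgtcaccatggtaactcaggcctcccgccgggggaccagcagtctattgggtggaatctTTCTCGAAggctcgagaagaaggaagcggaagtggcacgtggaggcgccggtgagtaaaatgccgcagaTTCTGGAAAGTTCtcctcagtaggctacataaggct
Hspa8: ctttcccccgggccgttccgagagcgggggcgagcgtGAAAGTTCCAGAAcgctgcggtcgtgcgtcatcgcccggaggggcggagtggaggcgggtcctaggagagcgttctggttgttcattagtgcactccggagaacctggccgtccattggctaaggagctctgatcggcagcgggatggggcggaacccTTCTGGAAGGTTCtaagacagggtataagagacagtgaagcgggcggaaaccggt
Hspd1: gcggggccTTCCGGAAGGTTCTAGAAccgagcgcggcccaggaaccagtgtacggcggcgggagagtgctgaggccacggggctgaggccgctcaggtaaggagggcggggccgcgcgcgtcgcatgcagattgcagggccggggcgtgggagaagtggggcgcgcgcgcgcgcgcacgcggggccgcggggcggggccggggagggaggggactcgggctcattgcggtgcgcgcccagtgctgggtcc
Hspa5: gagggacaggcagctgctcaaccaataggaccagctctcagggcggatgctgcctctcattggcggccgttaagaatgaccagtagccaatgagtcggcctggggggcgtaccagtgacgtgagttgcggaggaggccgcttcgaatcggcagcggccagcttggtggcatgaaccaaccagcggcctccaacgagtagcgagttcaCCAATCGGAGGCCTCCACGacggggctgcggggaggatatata

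Hsph1 held 3 core matches in these 250 bases, Hspa8 held 4 and Hspd1 held 3, counting overlapping matches and both strands. Of 33469 RefSeq stretches of the same length, 13.5% held at least 1 core match. The extended element, made of GAA and TTC units in turn, 3 in all, with any 2 bases between neighbours, contains 2 overlapping cores. It occurred 1 time in Hsph1, 2 times in Hspa8 and 2 times in Hspd1, against 0.663% of all stretches with any. Hspe1 starts on the opposite strand next to Hspd1, and its own stretch holds the same 18 bases, at chr9:64084262-64084279, read on the plus strand as follows.
Hspe1: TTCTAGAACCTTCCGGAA
Hspa9 held 1 core match and no extended one, and Hspa4 and Hspa4l held neither in the 250 bases. Hspa5 held no core match but 1 endoplasmic reticulum stress element, a motif found in 0.0657% of all stretches. These matches are letters only. They were not divided by compartment, since both mitochondrial chaperonin genes held extended matches and 2 of the 4 cytosolic genes held no core match.

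Nuclei were classed by marker genes, 1 nucleus at a time, without use of the 8 members. After filters and removal of called doublets 58960 nuclei remained, of which 34149 carried neuronal markers and 18857 those of astrocytes, oligodendrocytes, their precursors or microglia. The latter are called glia-gated below. A class is a range on a marker score and not a cell type. The classes tested were Drd1-gated (5483 nuclei), Drd2-gated (5372) and Grm8-gated (2193) neurons, somatostatin-gated (198) and other GABA interneuron-gated (533) neurons, astrocyte-gated (4798), oligodendrocyte-gated (10843), precursor-gated (1947), microglia-gated (1269) and endothelial-gated (290) nuclei. A further 20370 neuron-gated nuclei entered only the neuronal sum. Nuclei less than 20% above their gate made up between 0.236% of microglia-gated and 12.8% of Grm8-gated nuclei. Markers of other classes were low in some classes and not in others. The median Drd1-gated, Drd2-gated and Grm8-gated nucleus had 0 astrocyte-marker UMIs and 1.38, 1.42 and 1.74 oligodendrocyte-marker UMIs per 10,000, and the median oligodendrocyte-gated nucleus had 0 neuronal-marker UMIs. Microglia-gated nuclei had medians of 9.17 astrocyte-marker and 9.23 oligodendrocyte-marker UMIs per 10,000 beside 52.2 of their own. Precursor-gated nuclei had medians of 11.2 neuronal-marker and 8.89 spiny-marker UMIs beside 29.7 of their own, and astrocyte-gated nuclei had 11.6 spiny-marker and 4.08 oligodendrocyte-marker UMIs beside 31.5. Endothelial-gated nuclei had 27.8 UMIs of the Drd1 list, which includes Ebf1, and 11.5 of oligodendrocyte markers beside 88.6. The part of these UMIs in the results was not tested.

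The libraries held between 55739350 and 76272798 unique molecular identifiers (UMIs, each counting 1 captured RNA molecule), and the median nucleus held between 4259 and 6492. Naloxone replicate 5 stood apart from the other naloxone libraries, with chi-square values of 42.0 and 51.9 per degree of freedom against them, where the remaining pairs within a group gave 11.2 to 17.2. It also had the highest median mitochondrial share, 0.556% against 0.152% to 0.34% in the others. Each pair of libraries shared between 19 and 45 barcodes. Oligodendrocyte markers summed to between 251 and 432 counts per 1000000 UMIs (CPM) in the neuronal sums, and neuronal markers to between 434 and 558 CPM in the glial sums, and both ranges overlapped between treatments.

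Over all nuclei, the cytosolic HSP110 gene Hsph1 had the widest gap between the treatments among the members. It measured 131, 129 and 133 CPM in saline replicates 1 to 3 and 74.9, 69.1 and 89.6 CPM in naloxone replicates 4 to 6. Every naloxone library lay below every saline library. The log2 change was -0.76 ± 0.10 (SE), with an adjusted p of 0.0567 (edgeR's quasi-likelihood test, Benjamini-Hochberg over 17342 genes). No member passed the threshold of 0.05 over all nuclei, where 0.0404% of all genes tested were called (0.00577% called lower). An unadjusted p under 0.05 was found for 4 members and for 2437 genes (14.1%). The gene's adjusted p without each library in turn ran from 0.0137 to 0.323. It was 0.022 without naloxone replicate 5, with a log2 change of -0.67, and 0.0137 without naloxone replicate 6. Over all nuclei DESeq2 called 3 members, Hsph1, Hspa8 and Hspa4l, among 369 genes, or 2.49% of those it gave an adjusted p.

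The other cytosolic members were lower by smaller amounts. Hspa8 measured 45.6, 48.6 and 51.5 CPM in saline and 37.0, 32.9 and 41.6 CPM in naloxone libraries, with a log2 change of -0.39 ± 0.10. Hspa4l, an HSP110 gene known for its part in spermatogenesis, measured 117, 108 and 110 CPM against 92.0, 90.1 and 94.0 CPM, a log2 change of -0.28 ± 0.06. Neither gene's groups overlapped, and their adjusted p were 0.18 and 0.141 (edgeR). Hspa4, the HSP110 gene also called Apg-2, stayed nearer, at 120, 121 and 124 CPM against 113, 112 and 114 CPM. Its groups did not overlap either, at a log2 change of -0.11 ± 0.05 and an adjusted p of 0.372 (edgeR).

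Among organelle members the change was small over all nuclei. Hspa5 measured 158, 169 and 189 CPM in saline and 152, 168 and 165 CPM in naloxone libraries, and Hspa9 measured 52.6, 52.8 and 52.6 against 53.4, 48.0 and 47.8 CPM. Both pairs of groups overlapped. The log2 change was -0.09 ± 0.08 for Hspa5 and -0.09 ± 0.06 for Hspa9. The chaperonin barrel gene Hspd1 measured 26.1, 26.8 and 25.9 CPM against 22.8, 23.1 and 23.0 CPM, without overlap, at a log2 change of -0.20 ± 0.06 and an adjusted p of 0.246 (edgeR). Its lid partner Hspe1 overlapped between groups, at 14.4, 17.4 and 14.4 against 14.2, 14.9 and 12.2 CPM and a log2 change of -0.18 ± 0.11. In all, 5 of the 8 members had every naloxone library below every saline library over all nuclei, an order that 10% of all genes tested showed.

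**Figure D1:**
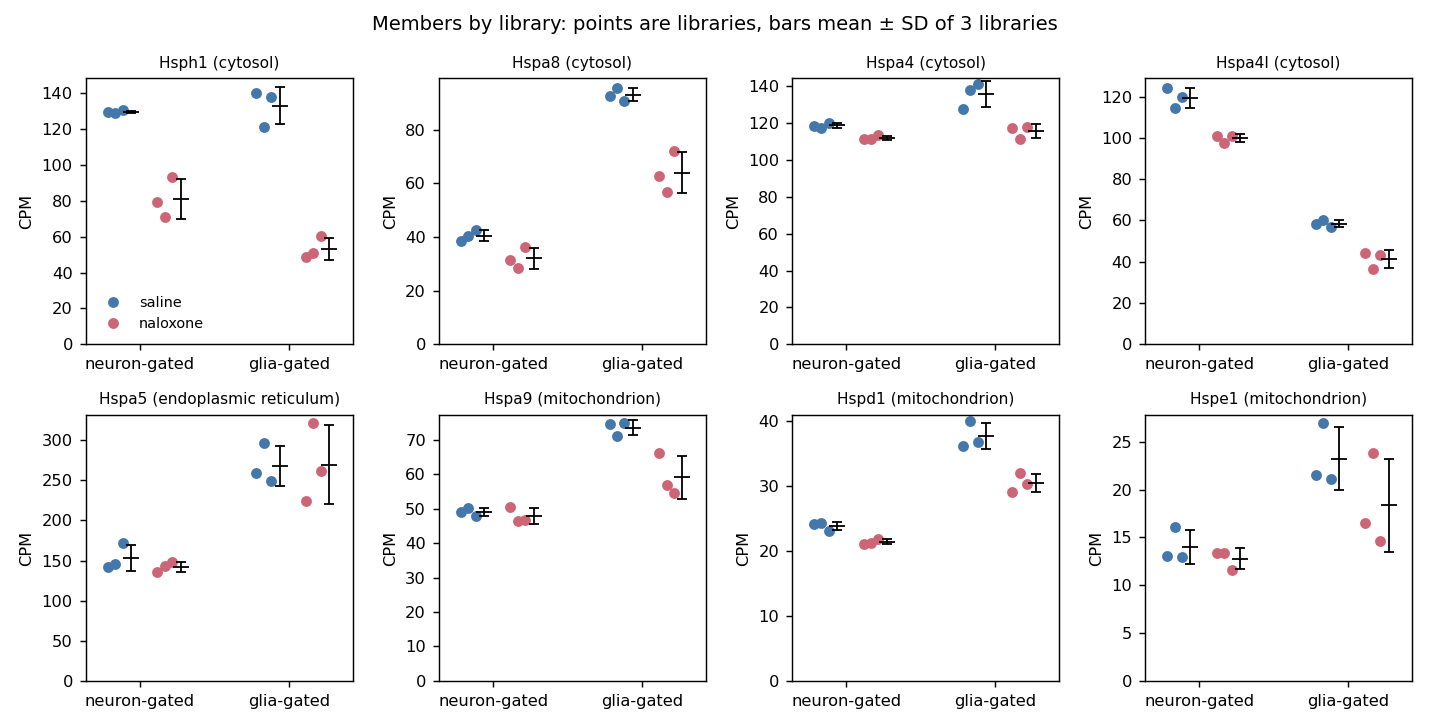
CPM of each member in neuron-gated and glia-gated nuclei (points, 1 per library; black bars, mean ± SD of 3 libraries), saline in blue and naloxone in red, with each axis starting at 0. Hsph1 is at 129 to 131 CPM in saline neurons and 70.9 to 93.2 CPM in naloxone neurons, and at 121 to 140 against 48.5 to 60.4 CPM in glia, while Hspa5 overlaps between treatments in both.

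Neurons and glia were then summed apart. In glia-gated nuclei Hsph1 measured 140, 121 and 138 CPM in saline and 48.5, 50.9 and 60.4 CPM in naloxone libraries. It was the 1 member called there, at a log2 change of -1.33 ± 0.12 and an adjusted p of 0.00135 (edgeR), with 0.289% of all genes tested called (0.0578% lower). The call held without each library in turn, with an adjusted p of 0.00155 to 0.0163. In neuron-gated nuclei the gene measured 129, 129 and 131 CPM against 79.2, 70.9 and 93.2 CPM, a log2 change of -0.68 ± 0.10 with an adjusted p of 0.0529 (edgeR), and no member was called (0.132% of genes were, 0.0602% lower). In neurons 4 members had an unadjusted p under 0.05, as 2614 genes (15.7%) did, and DESeq2 called 2, where it called 3.27% of genes. The neuronal value passed without naloxone replicate 5 (adjusted p of 0.00725) and without naloxone replicate 6 (0.0417), and ran up to 0.274 without another library.

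Of the other members in glia, Hspa8 measured 92.6, 95.7 and 90.7 CPM in saline against 62.8, 56.9 and 72.1 CPM in naloxone libraries, a log2 change of -0.54 ± 0.11 with an adjusted p of 0.0817 (edgeR). Hspa4l measured 58.3, 60.0 and 56.8 against 44.0, 36.4 and 43.5 CPM, at -0.50 ± 0.11. The mitochondrial genes Hspa9 and Hspd1 did not overlap in glia either, at -0.32 ± 0.10 and -0.31 ± 0.10. Hspa5 showed no such order, at 259, 296 and 249 against 225, 322 and 262 CPM, with its lowest and its highest library both in the naloxone group. In glia 6 of 8 members had every naloxone library below every saline library, an order shown by 8.53% of genes tested there. In neurons it was 5 of 8, beside 11.2% of genes.

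The difference between neurons and glia in the naloxone change was fitted as a term of its own, with library as a block. For Hsph1 the change was 0.63 ± 0.10 higher on the log2 scale in neurons, that is, less negative, with an adjusted p of 0.0531 (edgeR, over 17060 genes). No member was called by this term, which called 0.0703% of genes (0.0645% with a lower value in neurons). An unadjusted p under 0.05 was found for 4 members and for 1384 genes (8.11%). Without saline replicate 2 the term for Hsph1 passed, with an adjusted p of 0.0446, and without saline replicate 1 its adjusted p was 0.434. Hspa9 followed at 0.27 ± 0.09, and for Hspa5 the sign was the other way, at -0.11 ± 0.13, so the size of the difference varied among members.

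Per class, Hsph1 was called lower in 5 of 10 classes and its naloxone libraries lay below all saline libraries in 10 of 10. The share of genes called was 0.98% in oligodendrocyte-gated, 0.615% in astrocyte-gated, 0.414% in precursor-gated, 0.255% in Drd2-gated and 0.0557% in Grm8-gated nuclei. Counting lower calls alone, it was 0.194%, 0.143%, 0.0848%, 0.0926% and 0.0278% in the same order. The order of libraries seen for Hsph1 was shown by 9.76% of genes in oligodendrocyte-gated, 11.1% in astrocyte-gated, 7.76% in precursor-gated, 7.44% in microglia-gated and 5.69% in endothelial-gated nuclei. In neurons it was shown by 8.19% in Drd1-gated, 11.3% in Drd2-gated, 8.25% in Grm8-gated, 6.25% in somatostatin-gated and 7.61% in other GABA interneuron-gated nuclei. In oligodendrocyte-gated nuclei it measured 183, 135 and 167 CPM in saline against 50.8, 54.4 and 69.9 CPM in naloxone libraries. The log2 change was -1.47 ± 0.16, with an adjusted p of 0.000733 (edgeR). Astrocyte-gated nuclei gave 89.4, 110 and 107 against 46.7, 45.2 and 55.4 CPM, at -1.02 ± 0.14 and an adjusted p of 0.00388 (edgeR). Precursor-gated nuclei gave 106, 97.4 and 89.6 against 35.5, 47.7 and 48.6 CPM, at -1.13 ± 0.16 and an adjusted p of 0.000702 (edgeR). Thus in each of these 3 glial classes the naloxone mean was less than the lowest saline library. The calls in oligodendrocyte-gated and precursor-gated nuclei held without each library in turn, and the one in astrocyte-gated nuclei was lost without saline replicate 1 (adjusted p of 0.0526).

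Spiny neurons are the projection neurons of the striatum. Drd2-gated neurons gave 128, 131 and 125 CPM in saline against 83.7, 80.7 and 94.2 CPM in naloxone libraries, a log2 change of -0.55 ± 0.09 with an adjusted p of 0.0226 (edgeR). Grm8-gated neurons gave 123, 121 and 124 against 61.8, 70.9 and 85.8 CPM, at -0.72 ± 0.11 and an adjusted p of 0.0348 (edgeR). Drd1-gated neurons gave 127, 137 and 126 against 87.2, 80.6 and 108 CPM, at -0.52 ± 0.11 and an adjusted p of 0.138 (edgeR), where 0.0828% of genes were called (0.0301% lower). DESeq2 called 2 members in this class, Hsph1 (adjusted p of 0.00279) and Hspa8 (0.0351), among 76 genes. With edgeR the adjusted p of Hsph1 there ran up to 0.478, without saline replicate 1. The Drd1-gated value differs little from the Drd2-gated one in size, and the 2 classes were not tested against each other. The Drd2-gated call was lost without saline replicate 1, 2 or 3, with an adjusted p of up to 0.124. The Grm8-gated call was lost without any 1 of these and without naloxone replicate 4, with an adjusted p of up to 0.157. With a stricter gate the Grm8-gated change was -1.28 (adjusted p of 0.023, edgeR; 3.15e-07 to 0.157 over all alternatives), a size not below those in astrocyte-gated and precursor-gated nuclei, and 12.8% of Grm8-gated nuclei lay near the gate.

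In the remaining classes no member was called, and counts were low. Hsph1 had between 10 and 47 UMIs per library in somatostatin-gated, 24 and 100 in other GABA interneuron-gated, 21 and 45 in microglia-gated and 4 and 23 in endothelial-gated nuclei. Its log2 changes there were -1.31 ± 0.29, -0.98 ± 0.21, -1.13 ± 0.27 and -1.46 ± 0.40, with adjusted p of 0.128, 0.0696, 0.0972 and 0.906 (edgeR). These classes called 0.0443%, 0.136%, 0.356% and 0% of genes, and 0.0221%, 0.037%, 0.187% and 0% lower. The 0 calls in endothelial-gated nuclei, by edgeR and by DESeq2, stand beside 112 of 2144 genes (5.22%) with an unadjusted p under 0.05. Among these 112 were 2 of the 4 members tested.

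**Figure D2:**
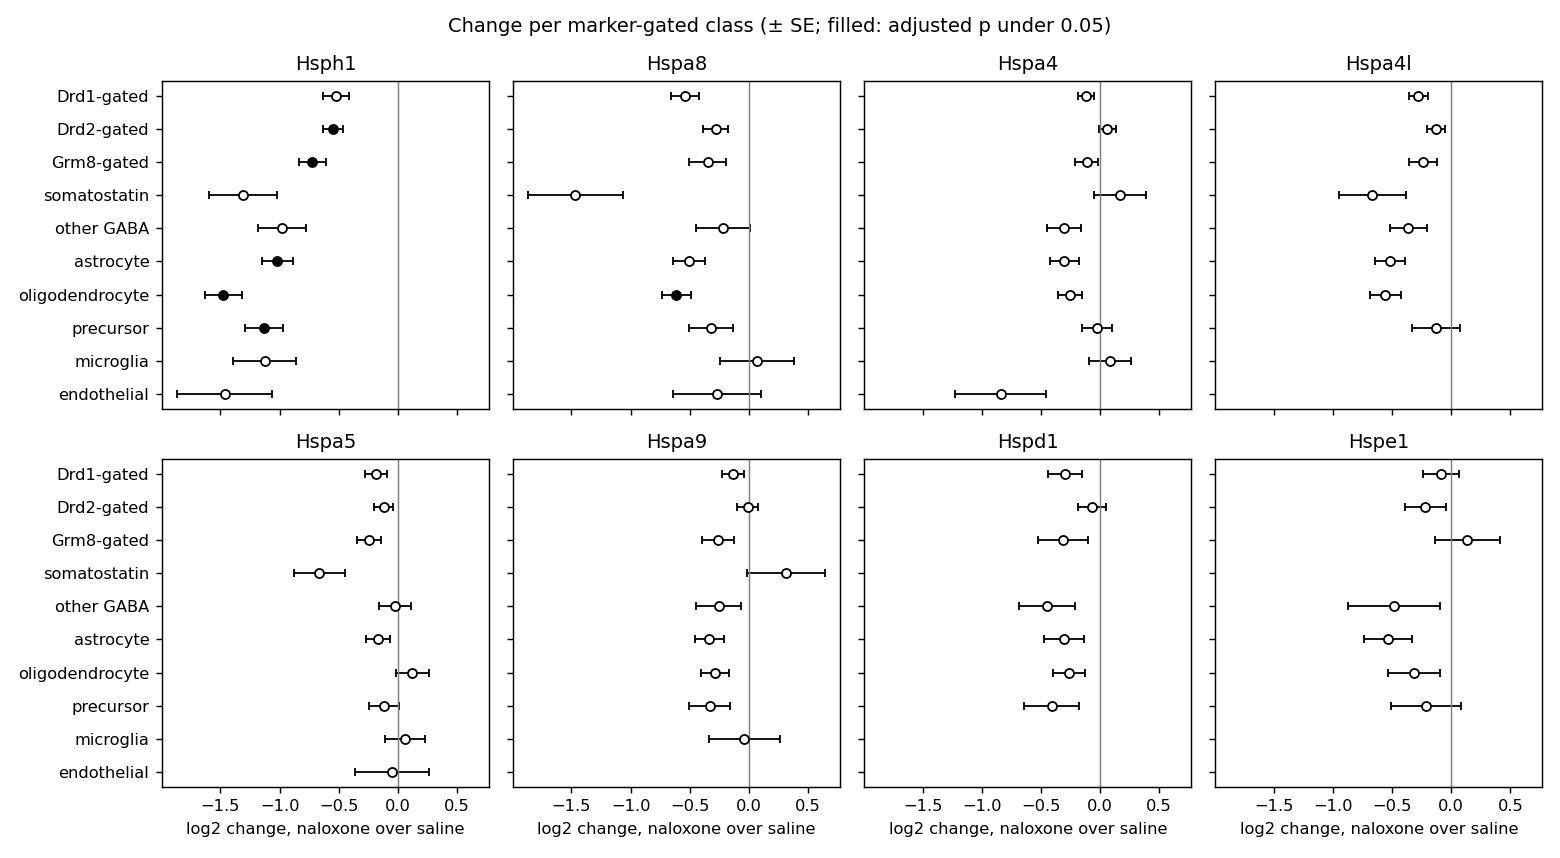
Log2 change of each member, naloxone over saline, in each marker-gated class (points ± SE from edgeR; filled points have an adjusted p under 0.05; a class in which the member failed the filter on low counts has no point). Hsph1 lies between -1.47 and -0.52 in all 10 classes, and the other members lie nearer to 0 in most of them.

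Hspa8 was called in 1 class, oligodendrocyte-gated nuclei. It measured 116, 108 and 102 CPM in saline and 71.4, 60.9 and 79.0 CPM in naloxone libraries there, without overlap. The log2 change was -0.61 ± 0.13 with an adjusted p of 0.0362 (edgeR). This call was lost without saline replicate 1, 2 or 3 or naloxone replicate 4 (adjusted p of up to 0.197) and under 3 other settings. Its naloxone libraries lay below all saline libraries in 7 of 10 classes, an order shown by 5.69% to 11.3% of genes tested per class. Drd1-gated neurons were among them, at 34.1, 42.8 and 33.5 against 24.7, 24.0 and 28.4 CPM and a log2 change of -0.54 ± 0.12, with an adjusted p of 0.153 (edgeR). In microglia-gated nuclei the groups overlapped, at 72.8, 89.3 and 90.6 against 41.4, 116 and 103 CPM.

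None of Hspa4, Hspa4l, Hspa5, Hspa9, Hspd1 and Hspe1 was called in a class. Hspa4l had a log2 change below 0 in 8 of the 8 classes in which it could be tested, from -0.67 to -0.13. Its naloxone libraries lay below all saline libraries in 6 of 10, beside 5.69% to 11.3% of genes tested per class. In oligodendrocyte-gated nuclei it measured 47.6, 50.7 and 45.6 CPM in saline and 33.2, 28.9 and 34.8 CPM in naloxone libraries, at -0.56 ± 0.13. Hspa4 was below 0 in 7 of 10 classes, from -0.84 in endothelial-gated to 0.17 in somatostatin-gated nuclei. In Drd2-gated neurons its libraries lay close together at 119, 112 and 118 against 120, 118 and 121 CPM, a log2 change of 0.06 ± 0.07.

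Hspa5 ran from -0.66 in somatostatin-gated to 0.12 in oligodendrocyte-gated nuclei. The groups did not overlap in 1 of 10 classes, somatostatin-gated nuclei, at 262, 208 and 260 CPM in saline against 112, 174 and 155 CPM in naloxone libraries. This order was shown by 6.25% of genes tested there, and by 5.69% to 11.3% per class. Hspa5 had 18 to 77 UMIs per library in somatostatin-gated nuclei. In oligodendrocyte-gated nuclei, where Hsph1 and Hspa8 were called lower, Hspa5 measured 221, 296 and 210 against 225, 321 and 251 CPM. Hspa9 ran from -0.34 to 0.31 over 9 classes, and its groups did not overlap in 3 of 10, beside the same shares of genes. Hspd1 was below 0 in 7 of 7 classes tested, from -0.45 to -0.07, and Hspe1 in 6 of 7, from -0.54 to 0.14. In astrocyte-gated nuclei Hspe1 measured 28.8, 32.3 and 25.2 against 17.0, 24.8 and 16.9 CPM, a log2 change of -0.54 ± 0.20 with an adjusted p of 0.34 (edgeR).

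Some of these counts carry a further uncertainty. RefSeq lists 33 pseudogenes named after Hspa8, 20 after Hspd1, 2 after Hspa9 and 1 after Hspe1, whose near-identical sequence can take or give reads. Of such copies, the feature lists hold Hspa8-ps23 with 43 UMIs beside 16263 of Hspa8, and Hspd1l1 with 1202 beside 9289 of Hspd1. No pseudogene by name was found for Hsph1, Hspa4, Hspa4l or Hspa5.

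Cytosolic and organelle members were compared by their medians. With all nuclei summed, the median log2 change of the 4 cytosolic members was -0.34 and that of the 4 organelle members -0.13, where all genes tested had a median of 0.01. The difference of the medians was -0.20. It kept its sign without each library in turn, from -0.29 without naloxone replicate 6 to -0.13 without naloxone replicate 5. No test was made, since the members are not replicates and the genes were chosen with these changes known. Without Hsph1 the cytosolic median was -0.28.

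In neuron-gated nuclei the medians were -0.30 and -0.13, and in glia-gated nuclei -0.52 and -0.32. The cytosolic median lay below the organelle one in 5 of the 7 classes in which all 8 members could be tested. It was lower in Drd1-gated (-0.40 against -0.16), Drd2-gated (-0.20 against -0.10), Grm8-gated (-0.29 against -0.25), astrocyte-gated (-0.51 against -0.32) and oligodendrocyte-gated nuclei (-0.59 against -0.28). The order was the other way in other GABA interneuron-gated (-0.34 against -0.35) and precursor-gated nuclei (-0.23 against -0.27). Without Hsph1 the cytosolic median lay below the organelle one in 4 of the 7. The Grm8-gated order turned (-0.24 against -0.25), the Drd2-gated median was -0.13, and those of other GABA interneuron-gated and precursor-gated nuclei were -0.31 and -0.13.

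**Figure D3:**
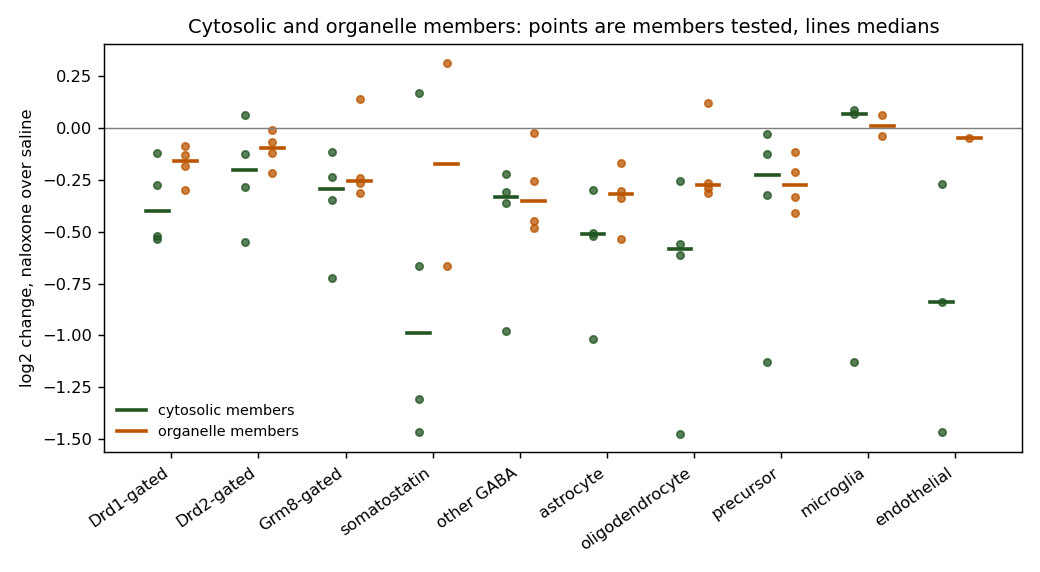
Log2 change, naloxone over saline, of the cytosolic members (green) and the organelle members (orange) in each class; points are the members that could be tested and lines their medians. In oligodendrocyte-gated nuclei the medians are -0.59 and -0.28, and in precursor-gated nuclei -0.23 and -0.27.

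Summed CPM give the same contrast weighted toward the genes with more UMIs. The 4 cytosolic members together made up 407 to 418 CPM in saline and 304 to 339 CPM in naloxone libraries over all nuclei, a difference of -22.4%. The 4 organelle members made up 251 to 282 against 242 to 254 CPM, a difference of -6.66%, and their groups overlapped. By class, the cytosolic sum of every naloxone library lay below that of every saline library in 10 of 10 classes, with differences of -43.8% to -14.0%. The organelle sum did so in 3 of 10, with differences of -24.1% to 2.06%. Hsph1 is part of the cytosolic sum and has that order by itself: without it the sum kept the order in 7 of 10 classes, with differences of -33.5% to 2.97%. The exceptions were Drd2-gated (-5.78%), somatostatin-gated (-26.8%) and microglia-gated nuclei (2.97%). In oligodendrocyte-gated nuclei the cytosolic sum was 440 to 476 against 260 to 310 CPM, while the organelle sum was 352 to 442 against 348 to 448 CPM. Hspa5 was the largest part of that organelle sum (saline mean of 242 CPM), and its mean differed by 9.58%. The mitochondrial members Hspa9, Hspd1 and Hspe1 differed by -18.1%, -16.2% and -17.3% there, without overlap for Hspa9 alone. None of these 4 was called, and the organelle sum does not show that they differed in sign.

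The level of the members in neurons and glia was not used to choose them and was tested. In each library log2(CPM + 1) in the neuronal sum was set against that in the glial sum, and the 6 differences were tested by an exact permutation of their signs (two-sided). The median gene itself had a difference of -0.36 (neurons minus glia) on this scale, over 13733 genes, so a member's value is read beside that. Adjusted over the 8 members, 7 reached an adjusted p of 0.0357 by this exact test, the smallest that the 6 libraries gave. The underlying pattern, the same sign in every library, was common: 81.6% of the 13733 genes had it, and 57.8% were lower in neurons in every library, so the count itself does not set the members apart. Hspa4l stood at the neuronal end, with means of 110 ± 11.3 CPM in neurons and 49.8 ± 9.80 CPM in glia (SD, n = 6). Such an SD over 6 libraries pools both treatments and so includes the difference between them. The log2 difference of Hspa4l was 1.14, higher in neurons in 6 of 6 libraries.

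Hspa8 stood at the glial end, at 36.2 ± 5.38 CPM in neurons and 78.5 ± 16.7 CPM in glia (SD, n = 6, both treatments), a log2 difference of -1.08. Hspa5 was at 148 ± 12.4 against 269 ± 34.8 CPM, a difference of -0.85. Neurons were lower in 6 of 6 libraries for both. Hspd1 (-0.56), Hspe1 (-0.58) and Hspa9 (-0.44) were lower in neurons by amounts nearer to that of the median gene, and Hspa4 (-0.12) by less than it. With TMM factors, a scaling that centres most genes between neurons and glia and moved the median gene by 0.37, Hspa4 turned to 0.25 and the differences of Hspa9 (-0.07) and Hspe1 (-0.24) did not pass. Under it Hspa8 (-0.73), Hspa5 (-0.49), Hspd1 (-0.21) and Hspa4l (1.53) kept their sign and passed. With nuclei thinned to 1000 UMIs the difference of Hspa4 was -0.11 and did not pass (adjusted p of 0.0714, exact permutation test).

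Hsph1 was the member whose level did not pass, with a log2 difference of 0.28 and an adjusted p of 0.188 in the exact test. Its libraries separated by treatment: -0.11, 0.09 and -0.08 in saline replicates 1 to 3 and 0.70, 0.47 and 0.62 in naloxone replicates 4 to 6. Saline neurons and glia thus had similar levels, of 130 and 133 CPM, and naloxone libraries had more in neurons. With TMM factors the difference of Hsph1 was 0.66 and passed. Separation by treatment was not particular to Hsph1. For Hspa8, Hspa4, Hspa4l, Hspa9 and Hspd1 too, every naloxone library had a higher difference than every saline library, while Hspa5 and Hspe1 overlapped. The differences over the 6 libraries thus include the treatment changes on which the members were chosen.

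**Figure D4:**
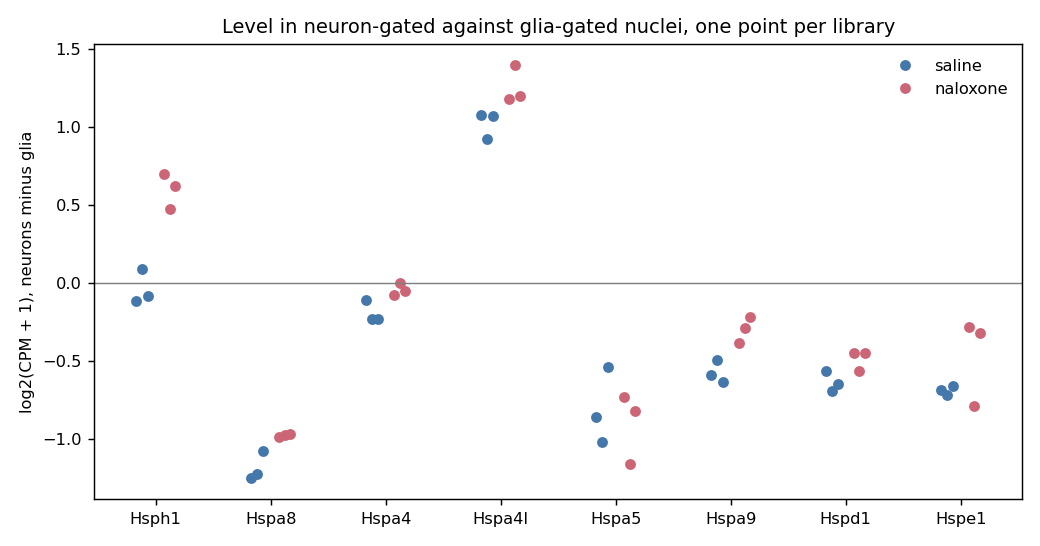
Difference in log2(CPM + 1) between neuron-gated and glia-gated sums for each member, 1 point per library, saline in blue and naloxone in red. Hspa4l is at 0.92 or more and Hspa8 at -0.97 or less in every library, and Hsph1 lies near 0 in saline and between 0.47 and 0.70 in naloxone libraries.

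Within the saline libraries the order of the classes differed between members. For Hspa5 the endothelial-gated (490 ± 43.1 CPM, SD, n = 3) and microglia-gated nuclei (474 ± 53.3) came first and overlapped each other, and all microglia-gated values lay above those of the next class. Drd1-gated (111 ± 9.59) and Drd2-gated neurons (109 ± 8.63) came last, overlapping each other and lying below Grm8-gated neurons (176 ± 20.1). For Hspa4l, Drd2-gated (139 ± 6.45), somatostatin-gated (135 ± 19.5) and Drd1-gated neurons (131 ± 10.4) came first with overlapping libraries. Grm8-gated neurons were at 74.8 ± 9.11 CPM, oligodendrocyte-gated nuclei at 48.0 ± 2.60 and microglia-gated nuclei at 16.2 ± 9.80.

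Hspa8 was highest in endothelial-gated nuclei, at 221 ± 79.7 CPM from 12 to 23 UMIs per library, and then in oligodendrocyte-gated nuclei, at 109 ± 7.08. Drd1-gated (36.8 ± 5.21) and Drd2-gated neurons (35.1 ± 2.02) came last and overlapped. Hspa9 had its highest mean in oligodendrocyte-gated nuclei (82.2 ± 4.68), above all libraries of the next class. Microglia-gated nuclei, further down at 65.5 ± 20.7, reached 77.6 CPM and overlapped the oligodendrocyte-gated values, which began at 76.9 CPM. For Hsph1 the neighbours in the order overlapped except for Drd2-gated (128 ± 3.08) above Grm8-gated neurons (123 ± 1.57). Its saline levels ran from 97.7 ± 8.35 CPM in precursor-gated to 234 ± 59.6 CPM in endothelial-gated nuclei. Hspa4 was flatter, from 105 ± 7.40 CPM in Grm8-gated to 214 ± 43.1 CPM in endothelial-gated nuclei, with every neighbour overlapping. Hspd1 was highest in endothelial-gated nuclei, at 69.0 ± 19.2 CPM from 2 to 9 UMIs per library, followed by oligodendrocyte-gated nuclei at 41.4 ± 3.95 CPM. It was at 19.0 ± 1.51 in Drd2-gated neurons, the last in its order, below all Drd1-gated values (22.1 ± 1.38) but overlapping Grm8-gated ones (23.8 ± 4.57). Hspe1 ran from 9.21 ± 3.74 CPM in somatostatin-gated to 28.7 ± 3.54 CPM in astrocyte-gated nuclei, with overlapping neighbours throughout.

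Nuclei with UMIs of Xist or of Y-linked genes, but not of both, were also assigned a sex. This gave 23712 female and 18839 male nuclei. The rest of the 58960 nuclei used had no assigned sex, among them 4466 with UMIs of both. Over all female nuclei Hsph1 measured 146, 111 and 135 CPM in saline and 63.1, 75.2 and 106 CPM in naloxone libraries. Over all male nuclei it measured 112, 142 and 127 against 86.7, 58.3 and 74.2 CPM. The groups were apart in both sexes, though in female nuclei the nearest libraries were at 111 and 106 CPM. Log2 changes were -0.65 ± 0.20 in female and -0.83 ± 0.14 in male nuclei, with adjusted p of 0.779 and 0.0412 (edgeR). The fits called 0 of 15852 genes in female and 80 of 15484 in male nuclei. The sex by treatment term of Hsph1 was -0.18 ± 0.29 (male minus female), with an adjusted p of 0.926 (edgeR). It moved with single libraries: it was -0.51 without naloxone replicate 4 and turned to 0.02 without saline replicate 2 and to 0.04 without naloxone replicate 6 (adjusted p of 0.221 to 1 over all alternatives, edgeR). No gene was called by this term (0% of 16435), and DESeq2 was not run on it. An unadjusted p under 0.05 was found for 985 genes (5.99%), and no member was among them. The terms of the other members ran from -0.22 for Hspa4l to 0.15 for Hspa5. These terms do not show that the sexes responded alike.

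The genes most like each of 4 members were found from 60 values, 10 classes by 6 libraries, after taking each class's mean from log2(CPM + 1). The search covered 6179 genes, and the 60 values share libraries and treatment. Hsph1 was most like Stip1 (Pearson r of 0.90), which encodes the adaptor between HSP70 and HSP90, P4ha1 (0.87), a collagen prolyl hydroxylase subunit, Dnaja1 (0.85), an HSP40 cochaperone, Hsp90aa1 (0.81), the inducible cytosolic HSP90, and Haus2 (0.79), a subunit of the microtubule-binding augmin complex. Among members its values were 0.58 with Hspa8, 0.52 with Hspa4, 0.48 with Hspd1, 0.34 with Hspa5, 0.21 with Hspe1, 0.19 with Hspa9 and 0.05 with Hspa4l. The last 3 genes had counts down to 0 UMIs per library in endothelial-gated nuclei, which weigh as much here as any other class. The order of these values is therefore not read by compartment.

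Hspa8 was most like Caprin1 (0.80), an RNA-binding protein of stress granules, Ptp4a2 (0.69), Hsp90aa1 (0.69), Sppl2a (0.67) and Naa16 (0.64). The closest genes of the organelle members reached lower values. For Hspa5 they were Ogfr (0.62), Casd1 (0.62), Rbm15b (0.60), Vdac1 (0.59) and Fam98a (0.58), and for Hspd1 they were Slc10a3 (0.66), Ankrd40 (0.63), Noc3l (0.61), Skic3 (0.61) and Rlim (0.60). None of these 10 is a member or a listed chaperone. Hspd1 and Hspe1, whose printed elements are the same bases, had an r of 0.30 with each other. That value includes endothelial-gated nuclei, where Hspd1 had 2 to 9 and Hspe1 0 to 3 UMIs per library. The part of such low counts in it was not tested.

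Other chaperone genes were followed as lists. Of 14 heat shock factors and cytosolic chaperones known as heat shock factor 1 targets, a list chosen with these changes known, 1 gene was called over all nuclei, lower, and none higher. Of all genes tested there, 0.00577% were called lower. The list's median log2 change there was -0.48. The call was Dnaja1, at 93.1 ± 2.14 CPM in saline and 62.4 ± 3.54 CPM in naloxone libraries (SD, n = 3 libraries), a log2 change of -0.59 with an adjusted p of 0.0463 (edgeR). In glia 4 of 13 were called lower, beside 0.0578% of all genes tested, and in oligodendrocyte-gated nuclei 5 of 12, beside 0.194%. Chordc1, which encodes an HSP90 cochaperone, was called in 8 of 10 classes, from -1.33 to -0.57 over all 10. Stip1 was called in 4, Dnaja1 and Hsp90aa1 in 3 each, and all 3 had a change below 0 in 10 of 10. The share of all genes tested that were called lower ran from 0% in endothelial-gated to 0.194% in oligodendrocyte-gated nuclei.

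Cct3, a subunit of CCT, the chaperonin of the cytosol, was called in astrocyte-gated and oligodendrocyte-gated nuclei, at -0.66 ± 0.14 and -0.70 ± 0.12. Lower calls made up 0.143% and 0.194% of all genes tested in these classes. The list of 8 CCT subunits had 0 calls over all nuclei by edgeR, although 8 of 8 changes were below 0, with a median of -0.29. All 8 had an unadjusted p under 0.05 there, as did 14.1% of all genes tested. In oligodendrocyte-gated nuclei 2 subunits were called lower, the other being Cct6a (-0.60 ± 0.13), which is named here after its value was seen. The median over the 8 subunits was -0.48 there, beside 0.00 for all genes tested.

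Of 16 genes for endoplasmic reticulum chaperones and the unfolded protein response, none was called over all nuclei by edgeR. In all, 12 of 16 had a change below 0, 6 had an unadjusted p under 0.05 (14.1% of all genes tested did), and the median was -0.11. These 6, named after their values were seen, were Pdia4, Manf, Ddit3, Dnajc3, Xbp1 and Pdia6, all with a change below 0. The value nearest to the threshold was that of Pdia4, at -0.44 ± 0.07 with an adjusted p of 0.0699 (edgeR). Pdia4, a disulfide isomerase of that compartment, was called lower in Drd2-gated neurons (-0.59 ± 0.11) and astrocyte-gated nuclei (-0.70 ± 0.14), as were 0.0926% and 0.143% of genes. In oligodendrocyte-gated nuclei 3 of 16 genes had a change below 0, with a median of 0.12, where Hspa5 was also above 0. The 10 genes of mitochondrial protein quality control had no call over all nuclei, with 0 at an unadjusted p under 0.05 and a median of 0.02. Neither the 9 other HSP70 family genes (median -0.17, 3 at an unadjusted p under 0.05) nor the 10 nucleotide exchange factors and partners of HSP70 in the files (median 0.10, 1 at an unadjusted p under 0.05) had a call over all nuclei.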

How the data were processed

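The authors deposited counts of UMIs per gene and nucleus barcode, with no normalization. Cell Ranger 9.0.1, Seurat 5.2.1, R 4.4.0 and the genome build mRatBN7.2 are named in the submitters' processing notes, and the labels give about 23000 read pairs per nucleus. Whether intronic reads were counted is not given in the sources used here. The count of nuclei in the labels is 44592, against 64260 barcodes in the deposited files. Kept were barcodes with 500 or more genes and a mitochondrial share of 5% or less (61609), and 2649 doublets (4.30%) were removed, called per library with Scrublet's scores at a rate of 0.4% per 1000 nuclei.

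A nucleus joined a class when its markers' UMIs per 10,000 passed the class's gate (50 for oligodendrocytes, 25 for neurons, 10 for other glial and vascular classes, and within neurons 30, 25, 3, 1, 4 and 30 for spiny, Grm8, Drd2, Drd1, somatostatin and other GABA markers). Among the glial, vascular, ependymal and neuronal lists, the own score over its gate also had to be 2 times that of any other list. Within neurons the classes were split by cutoffs on the marker scores, without this ratio, and interneurons needed 2 distinct markers. Gates were set after looking at marker scores. Mural and ependymal classes had under 20 nuclei in some library, and cholinergic interneurons and 3 of 82 marker symbols were not analysed here. The Drd1 list includes Ebf1, which vascular cells also express.

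Counts summed per library and class were tested with edgeR 4.0.16 (TMM, filterByExpr, quasi-likelihood F-test, Benjamini-Hochberg within each fit, threshold 0.05). CPM were computed from the sums, log2 values with a pseudocount of 1. The fits were tested on simulated data. DESeq2 1.42.0, R 4.3.3, scanpy 1.11.5 and scipy 1.17.1 were also used. The members and lists were chosen with earlier results of these data known. Named are all members, the 5 genes most like each of 4 members (at least 10 CPM in every class), and listed genes called over all nuclei or in 2 or more classes.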

Additional observations from a re-analysis of the deposited data

How the results depend on the processing

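No paired analysis was possible because the saline libraries carry replicate numbers 1 to 3 and the naloxone libraries 4 to 6, so the groups share no number. Over all nuclei the number of genes called was 7, and 41 without a filter on low counts, 369 with DESeq2, 74 on sums by sex, 14 with doublets kept, 0 with at least 1000 genes per nucleus and 0 to 228 without each library in turn, the last without naloxone replicate 5. On female nuclei alone it was 0 and on male nuclei alone 80, both chosen after seeing the data. Members called over all nuclei, 0 as reported, were 1 without a filter, 3 with DESeq2, 1 on sums by sex, 1 on male nuclei, 1 with doublets kept and 0 to 1 without each library. The 6 pairs of member and class called became 14 without a filter and 2 to 8 without each library (2 when saline replicate 1 was left out, 3 for saline replicate 2 and 3 for saline replicate 3). Members called by the neuron against glia term ranged from 0 to 1 and by the sex term stayed at 0. Members passing the level test fell from 7 to 0 without any 1 library, where those 7 each had an adjusted p of 0.0714 by the exact permutation test, whose smallest p over 5 libraries is above the threshold, and the level of Hspa4 turned from -0.12 to 0.25 with TMM factors. The median difference between cytosolic and organelle members ranged from -0.29 to -0.13 without each library. Genes called per class without each library ranged from 0 to 682 in neurons, 9 to 159 in glia, 0 to 58 in Drd1-gated, 8 to 63 in Drd2-gated, 0 to 69 in astrocyte-gated and 33 to 112 in oligodendrocyte-gated nuclei, and with DESeq2 were 466, 139, 76, 124, 101 and 168. The Hspa8 call in oligodendrocyte-gated nuclei was lost on sums by sex, with a stricter gate and with adjustment over all classes together. Of 1378 recomputed log2 changes of members between naloxone and saline (the sex and neuron against glia terms not counted), 36 had the other sign. None of them was of Hsph1 or of a member in a class where it was called. Hspa8 changed sign in classes where it was not called, as in other GABA interneuron-gated nuclei without saline replicate 1 (0.02). Classes with few nuclei could not be fitted at 1000 genes per nucleus (endothelial-gated) or with a stricter gate (somatostatin-gated). The causes were not tested. Depth limits the members with under 30 UMIs per library, above all in endothelial-gated and somatostatin-gated nuclei.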

Other observations

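The inducible cytosolic HSP70 genes Hspa1a and Hspa1b, near-identical copies whose counts may be split between them, were scarce in these nuclei. They were chosen after their values were seen. Over all nuclei Hspa1a measured 3.67, 2.26 and 2.80 CPM in saline and 0.677, 2.73 and 1.31 CPM in naloxone libraries, with overlapping groups, a log2 change of -0.90 ± 0.41 and an adjusted p of 0.371 (edgeR). Naloxone replicate 5, the library that stood apart from the other naloxone libraries, was the highest of its group. Hspa1b measured 0.659, 0.457 and 0.523 against 0.149, 0.0893 and 0.263 CPM, without overlap, a log2 change of -1.65 ± 0.37 and an adjusted p of 0.154 (edgeR). In glia-gated nuclei Hspa1a stood at 12.3, 8.82 and 7.66 against 1.99, 7.71 and 3.63 CPM.

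Hspa12a, a distant relative of the HSP70 family, was a mainly neuronal gene in these nuclei, at 135 to 147 CPM in saline neurons and 22.2 to 30.7 CPM in saline glia. Its neuronal libraries lay at 122, 123 and 130 CPM after naloxone, below every saline library, with a log2 change of -0.17 ± 0.06 and an adjusted p of 0.256 (edgeR).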
